A study of Rattus norvegicus with 6 samples.

Results

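The miR-34 and miR-449 family was examined in small RNA sequencing of rat primary sertoli cells, the somatic cells that support the germ cells of the seminiferous tubule. Its rows were found by name: every mature miRNA row of rno-miR-34a, rno-miR-34b, rno-miR-34c, rno-miR-449a or rno-miR-449c (rno marks the rat, and is left out below), whichever arm it came from, which gave 9 of the 734 mature miRNA rows of the count table. The cells came from the testes of prepubertal Sprague-Dawley rats, were grown in medium with fetal bovine serum and were used at the second passage. There were 3 control samples, to which no 4-NP was added, and 3 samples treated with 0.5 mM 4-nonylphenol (4-NP), an alkylphenol with estrogen-like action, each profiled at 24 h. No genotype or transgene separated the groups. The sources used here do not say whether the samples of a group were separate cultures or animals, so the spread between them may be technical.

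MiRNAs are short RNAs that guide the silencing complex to messenger RNAs, mainly through the seed, the stretch next to the 5′ end of the mature strand. Each hairpin precursor can give a strand from its 5′ arm, named 5p, and one from its 3′ arm, named 3p. The miR-34 genes are known as direct transcriptional targets of p53, the tumor suppressor activated by DNA damage and other stress, and miR-34a is a widely used marker of that response. The miR-34b, miR-34c and miR-449 genes are known for high expression in germ cells of the testis and in ciliated epithelium, where the family acts redundantly.

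The mature sequences explain why these miRNAs are treated as 1 family, so the 5p strands are shown with their seed (bases 2 to 8) in capitals. They are RefSeq sequences on the GRCr8 assembly.
miR-34a-5p: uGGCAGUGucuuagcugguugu
miR-34b-5p: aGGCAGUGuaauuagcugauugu
miR-34c-5p: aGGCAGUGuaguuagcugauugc
miR-449a-5p: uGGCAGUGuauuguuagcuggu
miR-449c-5p: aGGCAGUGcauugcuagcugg
All 5 share the seed GGCAGUG, and no other of the 693 mature sequences in the RefSeq table has it at these positions. All 9 counted rows were matched to a sequence, as were 606 of the 673 known miRNAs counted. Outside the seed they fall into pairs. miR-34b-5p and miR-34c-5p differ at only 2 of 23 positions, A11G and U23C (the base of miR-34b first, positions counted from the 5′ end). miR-449a-5p and miR-449c-5p differ at 3 of 21 positions. miR-34a-5p is closer to miR-449a-5p, with 7 of 22 positions different, than to miR-34b-5p or miR-34c-5p, each with 11 of 22.

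The 3p strands do not carry that seed, and they are shown because 3 of them gave clear counts.
miR-34a-3p: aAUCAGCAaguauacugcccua
miR-34b-3p: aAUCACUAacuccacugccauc
miR-34c-3p: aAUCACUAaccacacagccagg
miR-34b-3p and miR-34c-3p share the seed AUCACUA with each other and with no other sequence of the table, and they differ at 5 of 22 positions. Reads of the miR-34b and miR-34c strands could have been split between near-identical sequences by the authors' counting. In the GRCr8 annotation the genes Mir34b and Mir34c are direct neighbours, next to Btg4, and both overlap the protein-coding gene Hoatz. Mir449a and Mir449c are likewise neighbours, next to Gpx8, and both overlap the annotated gene LOC134485839. Mir34a lies apart from both pairs, between H6pd and Gpr157, and overlaps the annotated gene LOC103692514.

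The mature miRNA reads numbered 20023200 to 23426742 per sample, and levels are given as reads in every 1000000 of them (CPM). A count of 0 allows up to 3 reads, which is 0.128 to 0.150 CPM, and these limits cover counting error only. The known Sertoli cell miRNA miR-202-5p was present, at 1026 CPM on average without 4-NP and 746 CPM with it. Its log2 fold change was -0.48 (SE 0.16, edgeR adjusted p = 0.0858). The rare strand miR-202-3p had 1.98 ± 1.39 and 3.39 ± 3.12 CPM, a log2 fold change of 0.75 (SE 1.24, edgeR adjusted p = 0.725). Neither strand passed an adjusted p of 0.05. miRNAs known from other cell types were also counted. Summed over their lists, those of myoid or smooth muscle cells (miR-143 and miR-145, 4 rows) reached 120596 to 136273 CPM in the controls and 88389 to 96697 CPM after 4-NP, with 2 rows lower at an adjusted p under 0.05. The endothelial miR-126a strands had 6325 to 7615 CPM against 3234 to 3805 CPM, both lower. The erythroid list had 11.0 to 40.7 CPM against 59.3 to 631 CPM, with 1 of 2 tested rows higher. The myeloid list had 8.05 to 10.6 CPM against 8.36 to 14.1 CPM, with none of 3 tested rows past the threshold. Over all tested miRNAs, 12.8% were lower and 7.47% higher by the same rule in edgeR. The part of a change in the mix of cells in the results below was not tested, and in bulk samples more cells of a type and more RNA per cell cannot be told apart.

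miR-34a-5p, the p53-linked member, held nearly all reads of the family. It had 7175, 7385 and 6819.7 CPM in the 3 controls and 11344, 11871 and 10794 CPM in the 3 4-NP samples. Each treated sample was well above each control, and the means were 7126 ± 286 and 11336 ± 539 CPM (SD, n = 3 each). Among the mature miRNAs it ranked between 12 and 14 in the controls and 8 in every treated sample. edgeR put the log2 fold change at 0.65 with a standard error (SE) of 0.08, a 1.57-fold rise with an adjusted p of 0.00232.

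The passenger strand of the same hairpin, miR-34a-3p, was rare but rose as well. Control samples held 59, 69 and 48 reads of it and treated samples 114, 107 and 127. The treated samples again lay entirely above the controls, at 5.43 ± 0.333 against 2.55 ± 0.418 CPM (SD, n = 3 each), and the log2 fold change came to 1.08 (SE 0.17, edgeR adjusted p = 0.00591).

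**Figure D1:**
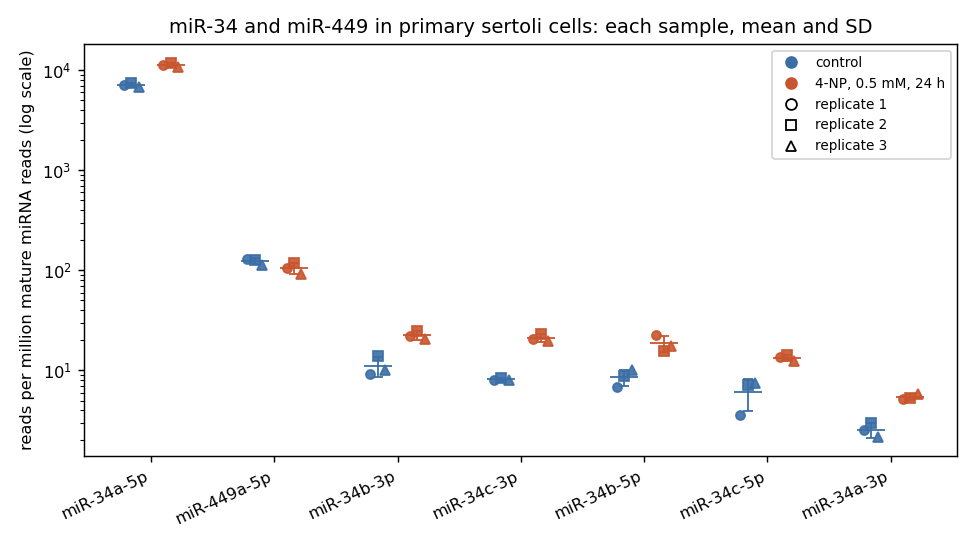
CPM of mature miRNA reads (log axis) of the 7 family strands with enough reads to be tested, in each control (blue) and each 4-NP sample (orange), with the group mean and SD. miR-34a-5p lies above all other strands, the treated samples lie above the controls for the 6 miR-34 strands, and the groups overlap for miR-449a-5p.

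The strands of the miR-34b and miR-34c pair were near 10 CPM in the controls and all 4 of them rose. miR-34c-3p changed with the least spread, with 186, 196 and 179 control reads against 460, 468 and 428 in the treated samples. Its mean went from 8.15 ± 0.293 to 21.2 ± 1.95 CPM, by 1.36 on the log2 scale (SE 0.12, edgeR adjusted p = 0.000563). For its neighbour miR-34b-3p the control reads were 217, 325 and 227 and the treated reads 492, 492 and 446. Mean levels of 11.2 ± 2.55 and 22.4 ± 2.11 CPM lay 0.99 apart on the log2 scale (SE 0.15, edgeR adjusted p = 0.00534).

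The 5p strands of this pair carry the family seed. Reads of miR-34b-5p numbered 159, 204 and 223 without 4-NP and 501, 316 and 387 with it. Even the lowest treated sample was above the highest control, with means of 8.54 ± 1.63 and 18.7 ± 3.54 CPM and a log2 rise of 1.11 (SE 0.20, edgeR adjusted p = 0.0104). Those of miR-34c-5p numbered 84, 166 and 168, with control replicate 1 the low one, and 299, 283 and 269 in the treated samples. Its mean levels were 6.10 ± 2.19 and 13.3 ± 0.940 CPM, a log2 rise of 1.11 (SE 0.27, edgeR adjusted p = 0.0297). This call did not hold without control replicate 2 or without any one of 4-NP replicates 1, 2 and 3, where the adjusted p in edgeR rose to between 0.0644 and 0.0810.

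miR-449a-5p, from a gene known to be driven by the cell cycle factor E2F1, did not share the rise. The controls had 3031, 2959 and 2541 reads of it, the treated samples 2338, 2390 and 2024. The highest treated sample was above the lowest control, and the levels were 124 ± 8.54 and 106 ± 13.5 CPM (SD, n = 3 each). The log2 fold change of -0.25 (SE 0.14, edgeR adjusted p = 0.247) did not pass the threshold, which shows neither a fall nor its absence. The other miR-449 strands were at or near the limit of detection. miR-449a-3p had 2 reads in 4-NP replicate 2 and 0 in every other sample. For miR-449c-5p the control reads were 4, 0 and 0 and the treated reads 1, 0 and 1, so no change was detectable at this depth.

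Of the 9 rows, 7 passed the filter on low counts, and with a limit of 0.05 on edgeR's adjusted p, 6 of these rose and 0 fell. The 6 are both strands of miR-34a, miR-34b and miR-34c, so they are not independent calls. DESeq2 also gave 6 higher and 0 lower, and at an unadjusted p under 0.05 edgeR gave 0 lower as well. Over all 549 miRNAs tested, 20.2% passed the same rule, 7.47% higher and 12.8% lower. With upper-quartile scaling, 58 miRNAs were higher and 65 lower, against 41 and 70 with the TMM scaling used here. The treated samples lay wholly above the controls for 6 of the 7 strands, as they did for 19.9% of all tested miRNAs, and the groups lay apart in either direction for 42.4%. The median log2 fold change of all tested miRNAs was -0.02, which is where the scaling centred them.

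**Figure D2:**
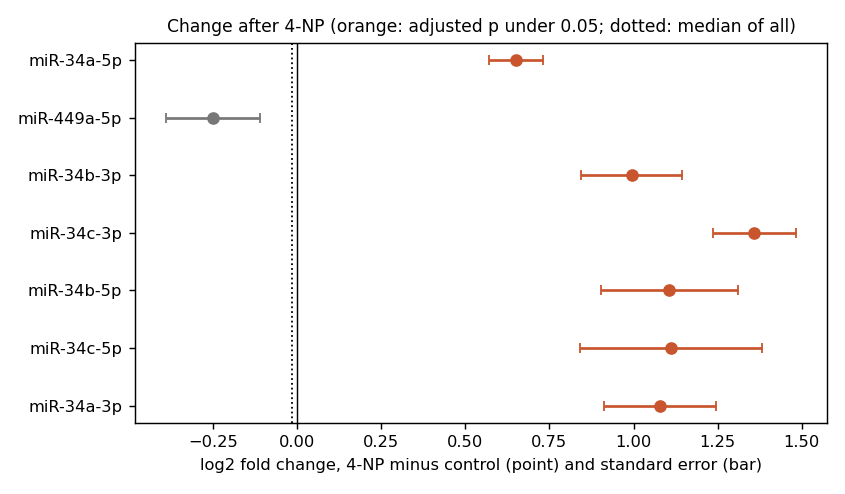
Log2 fold change (4-NP minus control, TMM scale) of each tested family strand, with its standard error. The 6 miR-34 strands (orange) lie between 0.65 and 1.36 and have an adjusted p under 0.05, miR-449a-5p (grey) lies at -0.25, and the dotted line at -0.02 is the median of all 549 miRNAs.

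The order of the levels was similar in both groups. The strands are 21 to 23 bases long, and reads per strand were compared without a correction for their sequence. How well reads follow the number of molecules of each strand was not tested. In the controls, miR-34a-5p was followed by miR-449a-5p, and each was apart from its neighbours in every sample. Then came miR-34b-3p (9.26 to 14.1 CPM), miR-34b-5p (6.79 to 10.0 CPM), miR-34c-3p (7.94 to 8.49 CPM) and miR-34c-5p (3.59 to 7.54 CPM). In that order miR-34b-3p overlapped miR-34b-5p and miR-34b-5p overlapped miR-34c-3p, while every control value of miR-34c-5p was below those of miR-34c-3p. miR-34a-3p was the lowest of the tested strands in every sample. After 4-NP, miR-34b-3p (20.4 to 24.6 CPM), miR-34c-3p (19.5 to 23.4 CPM) and miR-34b-5p (15.8 to 22.6 CPM) overlapped, and miR-34c-5p (12.3 to 14.1 CPM) was below all 3.

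Taking the 5 strands with the seed GGCAGUG as a pool shows what share of the reads with this seed came from miR-34a-5p. The pool held 0.731, 0.753 and 0.695% of all mature miRNA reads without 4-NP and 1.15, 1.20 and 1.09% with it. miR-34a-5p made up 98.1% of it in each control and 98.8 to 98.9% in each treated sample. The share of miR-449a-5p in the pool was 1.70 ± 0.0645% in the controls and 0.920 ± 0.0731% after 4-NP. miR-34b-5p and miR-34c-5p together with miR-449c-5p held the small rest, with 0.118 ± 0.0256% and 0.163 ± 0.0329% for miR-34b-5p (SD, n = 3 each). These shares are given as a description and were not tested.

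The question whether miR-34a moved differently from the other members was tested on ratios within a sample, which do not depend on library size or scaling. For every 1000 reads of miR-34a-5p there were 18.0, 17.3 and 16.7 reads of miR-449a-5p in the controls and 9.31, 10.1 and 8.56 after 4-NP. The groups were far apart, and the log2 ratio fell by 0.90 (SE 0.12, adjusted p = 0.00186 from limma on the ratios of all tested miRNAs to miR-34a-5p). This direction was common, since 49.6% of the miRNAs fell relative to miR-34a-5p by the same rule, and all these ratios share the error of miR-34a-5p itself. A rise relative to miR-34a-5p was found for 2.19% of the miRNAs, and miR-34c-3p was among them. It had 1.11, 1.15 and 1.18 reads for every 1000 of miR-34a-5p in the controls and 1.83, 1.97 and 1.81 after 4-NP, a log2 difference of 0.71 (SE 0.12, limma adjusted p = 0.00388).

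For the other strands the rise was not shown to differ from that of miR-34a-5p. The log2 ratio of miR-34b-3p was higher by 0.35 after 4-NP (SE 0.17, limma adjusted p = 0.127) and that of miR-34b-5p by 0.46 (SE 0.23, limma adjusted p = 0.126). In both, values of the groups overlapped. For miR-34c-5p the difference was 0.53 (SE 0.30, limma adjusted p = 0.182), from 0.859 ± 0.318 to 1.17 ± 0.0304 reads for every 1000 (SD, n = 3 each). It was 0.18 without control replicate 1, the low one, and 0.75 without control replicate 3. The exact permutation test over the 6 samples gave a two-sided p of 0.1 for miR-449a-5p and for both miR-34c strands and 0.2 for both miR-34b strands, and 3 samples against 3 allow no p below 0.1.

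**Figure D3:**
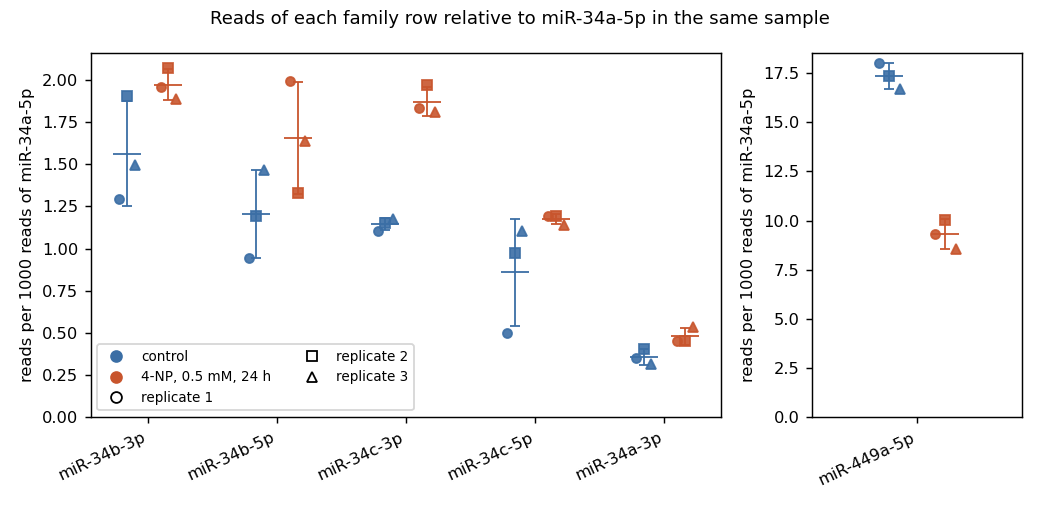
Reads of each strand for every 1000 reads of miR-34a-5p in the same sample, with the group mean and SD (left and right panels have different scales). miR-34c-3p is between 1.11 and 1.18 in the controls and between 1.81 and 1.97 after 4-NP, and miR-449a-5p falls from between 16.7 and 18.0 to between 8.56 and 10.1.

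The balance of the strands within a hairpin differed between the genes far more than between the groups. miR-34a gave 2849, 2472 and 3167 reads of the 5p strand for each read of the 3p strand in the controls and 2202, 2221 and 1861 after 4-NP. The treated values were all below the controls, a log2 difference of -0.42 with the smallest p that the exact permutation test allows (two-sided p = 0.1). In limma the same ratio did not pass the threshold (adjusted p = 0.0720). For miR-34b the ratio was 0.781 ± 0.182 in the controls and 0.843 ± 0.189 after 4-NP, and for miR-34c it was 0.746 ± 0.259 and 0.628 ± 0.0227 (SD, n = 3 each). The 3p strand of miR-34c thus had more reads than its 5p strand in every sample. Neither of these ratios separated the groups (exact permutation test, two-sided p = 0.7 and 0.6).

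The choice of the family did not use the reads assigned to the precursor class. Neither precursor family passed the edgeR test over all 6 samples. Their change was not tested against that of the mature strands. The table counts them by Rfam family, and the rule that parted them from mature reads is not given in the sources used here. Only short RNA cut from a gel was sequenced, so they are short reads assigned to a family and not counts of intact hairpins. Whether they follow the level of the hairpins was not tested. Control samples held 4748, 4550 and 3460 such reads of the mir-449 family, and treated samples held 1053, 821 and 52. In CPM these are 203, 197 and 155 against 47.6, 41.0 and 2.37, so each treated sample was far below each control and 4-NP replicate 3 was below the other two. For each mature miR-449a-5p read there were 1.57, 1.54 and 1.36 of these short reads without 4-NP and 0.450, 0.344 and 0.0257 with it. edgeR gave a log2 fold change of -2.66 (SE 0.88), which missed the threshold over the 93 tested precursor families (adjusted p = 0.0605). Of those families 30.1% passed it in either direction and 19.4% passed it as lower. Over all 6 samples, DESeq2 did call the mir-449 family lower (adjusted p = 0.0403). Omitting 4-NP replicate 3 gave a log2 value of -2.12 with an adjusted p of 0.000469 in edgeR. Omitting any other single sample gave no call, with an adjusted p of 0.0711 to 0.140 in edgeR. A replicate block gave none either (edgeR adjusted p = 0.108).

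The mir-34 precursor family was small, with control reads of 99, 80 and 55 and treated reads of 5, 92 and 3. 4-NP replicate 2 was above the controls in CPM and the other treated samples were near 0. The log2 fold change of -1.08 (SE 1.10, edgeR adjusted p = 0.468) became -4.20 (edgeR adjusted p = 0.00186) without 4-NP replicate 2. It was -1.24 to -0.54 when any other single sample was omitted (edgeR adjusted p of 0.521 to 0.695). These reads came to at most 0.000589 of the miR-34a-5p reads in a sample.

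**Figure D4:**
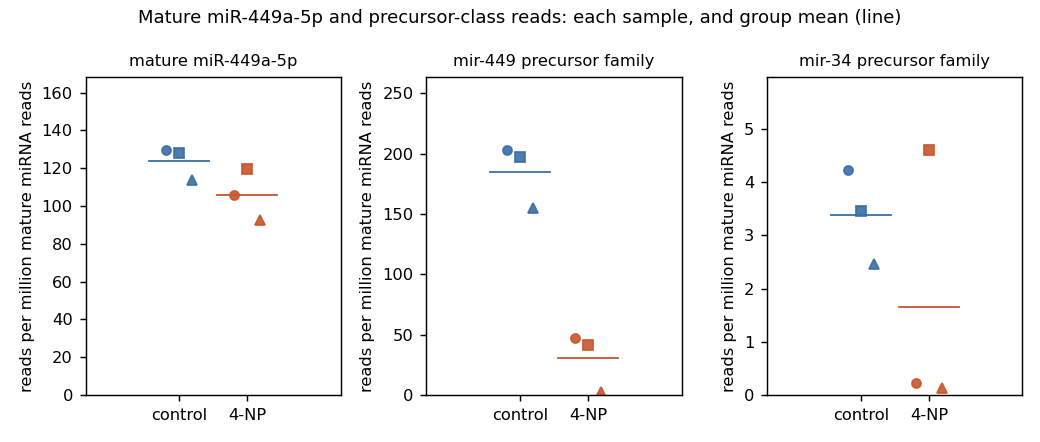
CPM of mature miR-449a-5p and of the short reads assigned to the mir-449 and mir-34 precursor families in each sample, with the group mean as a line. The mir-449 precursor reads are 155 to 203 in the controls and 2.37 to 47.6 after 4-NP, while miR-449a-5p overlaps between the groups and 4-NP replicate 2 alone is high for the mir-34 precursor.

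Other miRNAs tied to p53 were found on both sides of no change. A list of 12 miRNAs that p53 is known to induce or to help process had 21 rows in the table, of which 16 were tested. Of these, 4 were higher and 2 lower at an adjusted p under 0.05 in edgeR, beside 7.47% higher and 12.8% lower over all tested miRNAs. The median log2 fold change of the list was -0.15, beside -0.02 over all. The number higher was 2 without any one of control replicates 2 and 3 and 4-NP replicates 1 and 3. Those higher were miR-192-5p and miR-194-5p, which are made from shared transcripts, and both strands of miR-22. Mean miR-192-5p went from 45.8 ± 6.74 to 90.7 ± 6.49 CPM, by 0.96 on the log2 scale (SE 0.15, edgeR adjusted p = 0.00663). For miR-194-5p the log2 fold change was 1.14 (SE 0.26, edgeR adjusted p = 0.0226), for miR-22-3p 0.44 and for miR-22-5p 0.53. Those lower were miR-143-3p, at -0.50 (SE 0.10, edgeR adjusted p = 0.0177), and miR-145-3p, at -1.88 (SE 0.14, edgeR adjusted p = 0.000278), which also stand in the myoid and smooth muscle list.

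A second list held 5 miRNAs known to target the p53 transcript, with 7 tested rows of 8. Of these, 1 was higher and 1 lower at an adjusted p under 0.05 in edgeR, beside 7.47% higher and 12.8% lower over all tested miRNAs. The 1 higher was miR-30d-5p, with a log2 fold change of 0.59 (SE 0.10, edgeR adjusted p = 0.00746). miR-125a-3p was lower by the same rule, at -0.84 (SE 0.23, edgeR adjusted p = 0.0473), and no longer so without control replicate 1, control replicate 2 or 4-NP replicate 1. For the abundant strand miR-125b-5p a log2 value of -0.79 (SE 0.33) did not pass the threshold (adjusted p = 0.143 in edgeR).

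**Figure D5:**
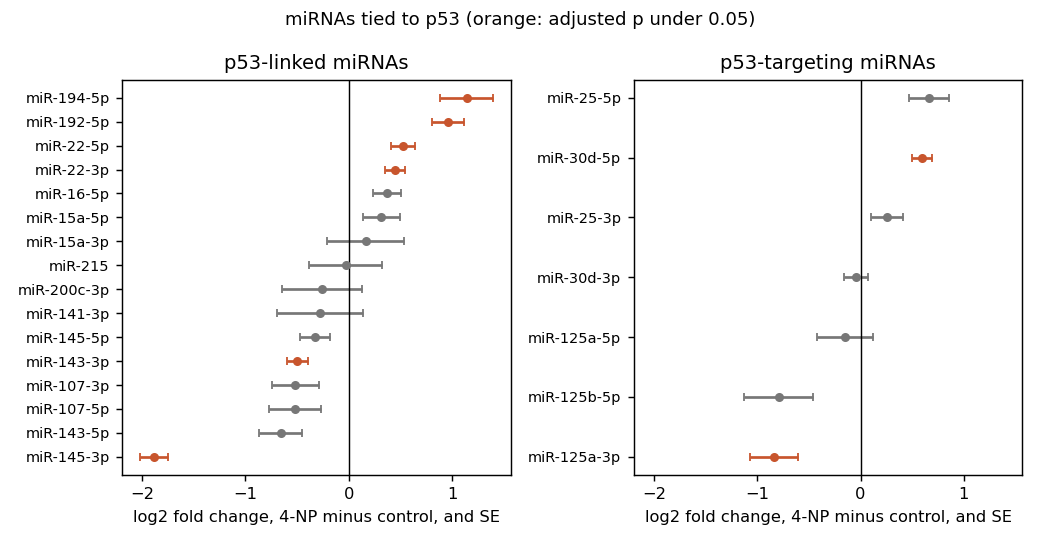
Log2 fold change (4-NP minus control) with standard error of the tested strands of the p53-linked list (left, 16 strands) and the p53-targeting list (right, 7 strands), in orange where the adjusted p is under 0.05. The p53-linked strands spread from -1.88 for miR-145-3p to 1.14 for miR-194-5p.

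Since miR-34b, miR-34c and miR-449 are known from germ cells and ciliated epithelium, lists that touch on these cells were read beside them. One covers germ cells and early embryos, the other ciliated or other epithelium. Neither list is specific to the germ cells or ciliated cells from which these miRNAs are known. The germ cell and early embryonic list (9 rows of the miR-290 to miR-295 group) summed to 1.65 to 2.95 CPM in the controls and 0.449 to 0.594 CPM after 4-NP. Only miR-292-3p of this list had enough reads to be tested. It was lower, with a log2 fold change of -2.26 (adjusted p = 0.0297 in edgeR), as were 12.8% of all tested miRNAs. Its mean without 4-NP was only 0.754 CPM. With 4-NP it was 0.153 CPM, close to the limit set by a count of 0, so the row entered the test through its control reads. Whether the list as a whole fell was not tested. The epithelial list of 9 rows around miR-200 summed to 11.6 to 13.9 CPM against 6.59 to 7.95 CPM, with 2 of 6 tested rows lower and 0 higher at an adjusted p under 0.05 in edgeR, beside 12.8% lower and 7.47% higher over all miRNAs. The part of such cells in the family's values was not tested.

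The miRNAs whose levels followed the family over the 6 samples were found by Pearson's r of log2(CPM + 1). For r alone, the CPM were also scaled by the TMM factors, while the levels printed below were not. They were sought among 481 tested miRNAs with at least 20 reads on average, with the family members left out. Nearest to miR-34a-5p were the authors' predicted novel_mir3 (r = 0.99), miR-320-3p (r = 0.99) and miR-7a-5p (r = 0.98). Of these, novel_mir3 was low in the controls, at 0.743 ± 0.645 CPM, against 26.5 ± 4.24 CPM after 4-NP (SD, n = 3 each). miR-320-3p, known to be made without Drosha, stood at 119 ± 6.93 CPM without and 351 ± 8.81 CPM with 4-NP, and miR-7a-5p at 1669 ± 178 and 3918 ± 234 CPM (SD, n = 3 each). Nearest to miR-449a-5p were miR-107-5p (r = 0.96), miR-300-5p (r = 0.94) and let-7c-1-3p (r = 0.93), each with 1.43 to 2.96 CPM on average in either group. The 6 points fall into 2 treatment groups and share the library scaling, so these values of r describe the likeness and were not tested.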

How the data were processed

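Short RNA of 18 to 30 nt was cut from a gel, ligated to adapters with molecular identifiers and sequenced. The authors deposited raw read counts of each small RNA in each of 6 samples, and the processing notes name HISAT2 and DESeq2 without a role. The miRNA database, genome build and counting rule are not given in the sources used here. A further 6 deposited columns, named for the molecular identifiers, were not used, and no PCR copies were removed here. Whether the authors' counts already had them removed is not stated in the sources used here. The numbers in the headers of the treated columns gave their samples.

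Counts of all 734 mature miRNAs were fitted in R 4.3.3 with edgeR 4.0.16 (filterByExpr, TMM, two-sided quasi-likelihood F test, no replicate block), which tested 549, with Benjamini-Hochberg adjustment over all of them. Levels (CPM) are counts in every 1000000 mature miRNA reads. Rows that name no gene held 3.52 to 5.91% of all counted reads and were left out. Ratios to miR-34a-5p were log2 values with 0.5 added to each count, fitted with limma 3.58.1 for all tested miRNAs, and precursor families used the mature scaling factors. Replicates of a group differed by more than counting error (chi-square per degree of freedom of 154 to 942). The edgeR fit without its low-count filter and the limma ratio fit were tried on simulated counts, drawn with dispersions of the main fit. The outcome is not reported here, and the precursor fit and the permutation tests were not simulated. Named miRNAs beyond the family were those with its seed and called members of the p53 lists. The 3 nearest by r to miR-34a-5p and to the most abundant other member were also named. Both miR-202 strands, miR-125b-5p, miR-126a and miR-292-3p were named outside this rule, after their values were seen. The family, these lists (p53-linked, p53-targeting and the cell type lists) and the tests were chosen with earlier results of these data known. Alternatives were other scalings, filters, pseudocounts and reference rows, DESeq2 1.42.0, limma on log2(CPM + 1), known miRNAs only, a replicate block and the omission of each sample.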

Additional observations from a re-analysis of the deposited data

How the results depend on the processing

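The 6 rises of miR-34 strands and the absence of a call for miR-449a-5p kept their direction under all alternatives run. Only miR-34c-5p lost its call. Its log2 fold change was 1.17 (adjusted p = 0.0529 in edgeR) with a replicate block and 0.86 to 1.31 when single samples were omitted (adjusted p of 0.0251 to 0.0810 in edgeR). With miR-34b and miR-34c added up per arm, chosen after seeing the data, both sums rose (1.12 and 1.17). The ratios of miR-34c-3p and miR-449a-5p to miR-34a-5p kept their calls. Over the omissions that of miR-34b-5p ran from 0.30 to 0.62 and that of miR-34c-5p from 0.18 to 0.75, with no call. That of miR-34b-3p ran from 0.22 to 0.50 over the omissions and passed the threshold without control replicate 2 (adjusted p = 0.0475 in limma). The 5p to 3p ratio turned its direction for miR-34b without control replicate 2 (-0.036) or 4-NP replicate 1 (-0.040), over a range of -0.040 to 0.29, and for miR-34c without control replicate 3 (0.019), over a range of -0.51 to 0.019. With a replicate block the p53-linked list had 1 higher and 1 lower, and the p53-targeting list had 0 lower, as with DESeq2. Over the omissions the p53-linked list had 2 to 4 higher and the p53-targeting list 0 to 1 lower. The precursor alternatives were chosen after seeing the data. The mir-449 precursor log2 fold change was -2.65 in DESeq2, where it was called. Over the omissions it was -3.12 to -2.12, with a call only without 4-NP replicate 3. That of mir-34 was -4.20 to -0.54 over the omissions, with a call only without 4-NP replicate 2. The cause of these differences was not tested. Correlations of same-numbered samples, centred within each group, were -0.30, -0.26 and -0.02, beside -0.096 to 0.30 for unlike numbers. They showed no pairing by number, but with 3 centred samples in a group they cannot decide whether samples were paired. With the block, 26 miRNAs were higher and 56 lower in place of 41 and 70. Depth limits statements on miR-449a-3p and miR-449c-5p.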
